A study of Mus musculus with 6 samples.

Results

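A group of 42 genes that copy DNA or supply its building blocks was examined in RAW264.7 cells given RANKL with or without etelcalcetide. The genes were chosen by symbol for their roles at the replication fork, and each of the 42 matched 1 of the 55536 gene IDs of the deposited tables through the mouse annotation GENCODE M21. RAW264.7 is an immortalised mouse macrophage line, and RANKL is the cytokine that drives such cells to become osteoclasts, the cells that resorb bone. Etelcalcetide is a calcimimetic, a peptide that switches on the receptor for extracellular calcium. Bulk RNA sequencing was available for 3 libraries of cells given 50 ng/mL RANKL and for 3 libraries of cells given the same dose of RANKL together with 4 µM etelcalcetide. Both groups therefore carried RANKL, and no library of untreated cells was analysed here. The series design states 5 days of exposure, whereas the sample labels state 5, 6 and 7 days for replicates 1, 2 and 3 of each group. The labels do not state whether replicates were independent cultures, and p-values therefore reflect only how far these libraries scatter, which may be technical. The cells are 1 immortalised line in culture, and in bulk RNA a change of RNA per cell cannot be told apart from a change in the share of cells that were cycling.

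Copying a genome begins when the origin recognition complex, with Cdc6 and Cdt1, loads the ring of MCM2 to MCM7 onto DNA. Cdc45 and the GINS complex then join the ring to make the active helicase, polymerase alpha with primase starts each strand, and the RFC clamp loader places the PCNA ring that holds polymerases delta and epsilon on the template. Ribonucleotide reductase, thymidylate synthase, thymidine kinase and dUTPase set the supply of deoxynucleotides. Many of these genes are transcribed together as cells enter S phase, under E2F transcription factors. Osteoclasts form when macrophage precursors leave the cell cycle and fuse.

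Most replication genes were lower with etelcalcetide, by modest amounts. All 42 members passed the filter on low values, and 33 were lower and 0 higher (limma, Benjamini-Hochberg adjusted p under 0.05), with 9 not passing the test. Across all 11120 tested genes, 27.0% were lower and 26.0% higher by the same rule, and the 33 members make up 78.6% of the 42. The median log2 fold change was -0.31 over the members and -0.01 over all tested genes, and 22.6% of all tested genes lay at or below the members' median. The members ran from Gins3, a GINS subunit, at -1.46 to Chaf1b, a subunit of chromatin assembly factor 1, at 0.06. Only 10 members were lower by more than 0.5 on the log2 scale and 1 by more than 1. At an unadjusted p under 0.05, limma called 36 members lower and 0 higher, against 29.9% lower and 29.0% higher of all tested genes. With limma-voom on recovered reads 33 members were lower and 0 higher, against 28.5% and 26.6% of all tested genes. With library totals in place of the scaling factors, 25 members were lower and 0 higher, while all tested genes went from 2998 lower and 2896 higher to 2272 lower and 3558 higher and their median log2 fold change became 0.07.

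**Figure D1:**
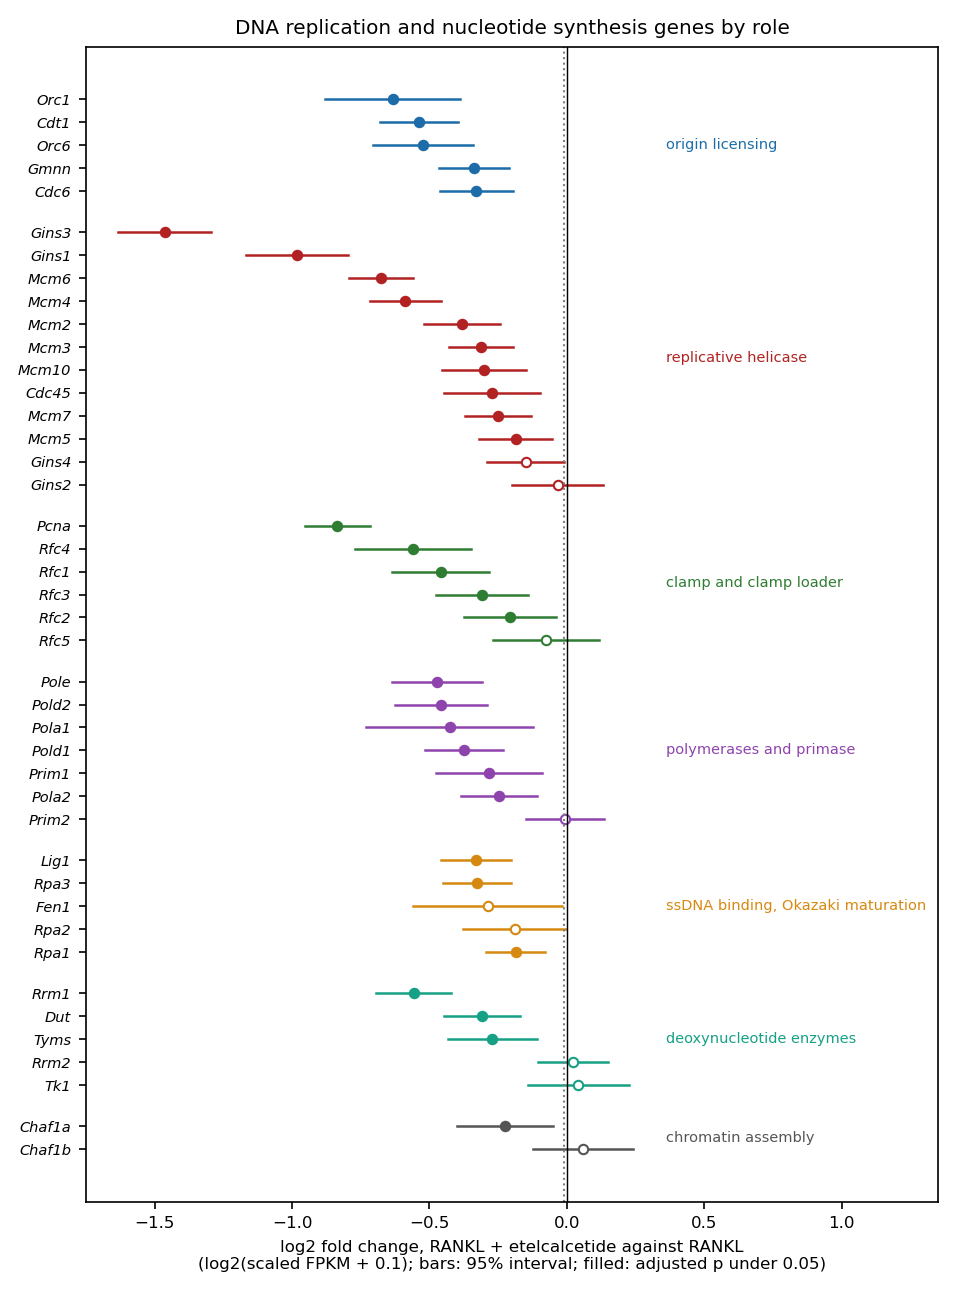
Log2 fold change (x axis, log2 of scaled FPKM + 0.1, RANKL + etelcalcetide against RANKL) of each of the 42 members (y axis), grouped and coloured by role, with 95% intervals; filled points passed the test and the dotted line is the median of all tested genes. Gins3, Gins1 and Pcna lie farthest to the left, and the 9 open points lie in every role except origin licensing.

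The groups separated for most members. After scaling, the 3 treated values lay below the 3 RANKL values for 34 of the 42 members and above them for 0. Of the 11120 tested genes, 3470 (31.2%) had the treated values lower without overlap and 3410 had them higher. In the deposited FPKM values (fragments scaled by exon length and library total), before scaling, 29 members were lower without overlap, and 2 members, Prim2 and Rrm2, were higher without overlap, where all tested genes gave 24.5% lower and 36.7% higher. Scaling divided RANKL libraries by 0.967 to 0.978 and treated libraries by 1.01 to 1.04. Compared with scaled values, deposited values thus give smaller falls and larger rises. Which scale is nearer to the RNA amounts was not tested. The share of all reads taken by the members was 0.554% to 0.565% with RANKL and 0.440% to 0.476% with etelcalcetide. Single members had from 138 to 7535 reads in a library.

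The 3 treated libraries were not equal. Relative to the mean of their own group, 37 of the 42 members were above it in etelcalcetide replicate 1, 18 in replicate 2 and 7 in replicate 3, with median deviations of 0.07, 0.00 and -0.06 on the log2 scale. In RANKL replicates 1, 2 and 3, 20, 21 and 25 members were above their group mean. The labels give replicates 1, 2 and 3 as 5, 6 and 7 days, so replicate number and labelled day cannot be told apart. Over all tested genes the share above the group mean was 45.5% to 52.3% in the 6 libraries. These deviations are smaller than the fall of Gins3 or Pcna by an order of magnitude, and nearer to the differences of Mcm5 and Rfc2 described below.

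**Figure D2:**
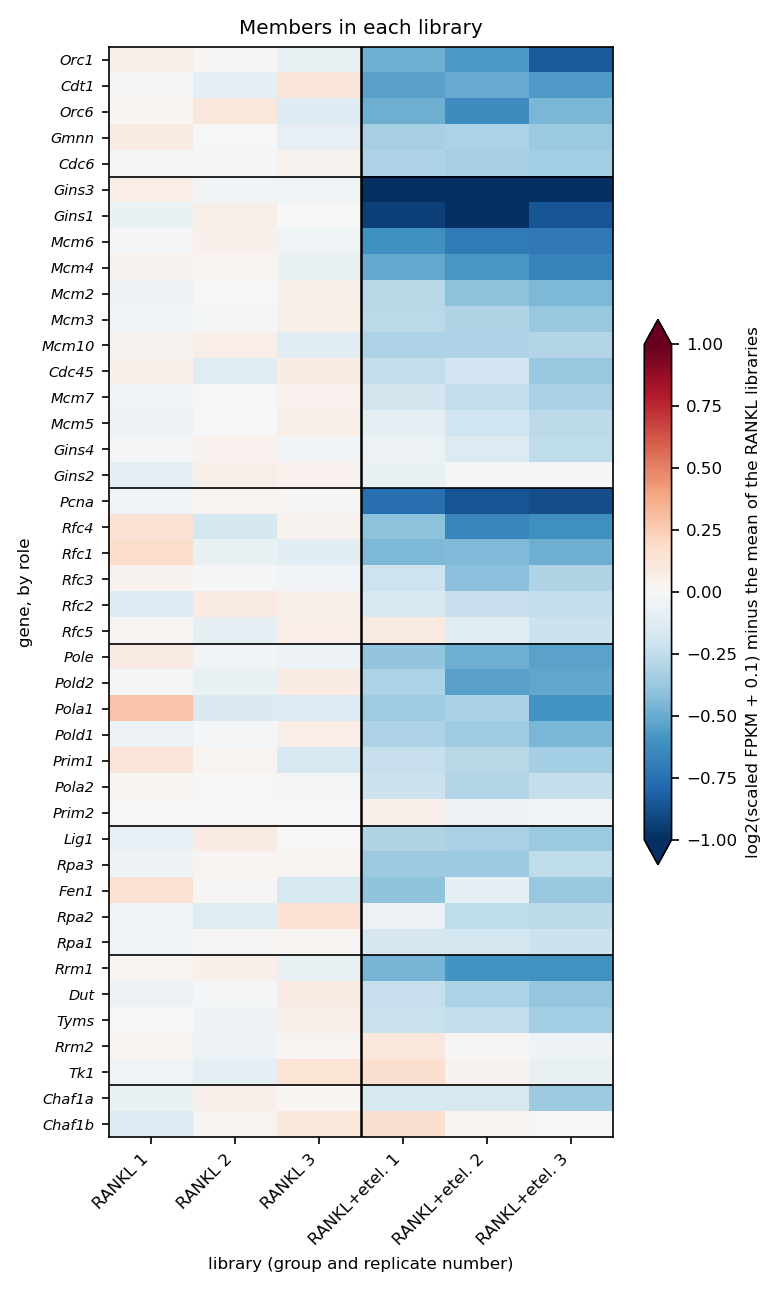
Colour gives log2(scaled FPKM + 0.1) minus the mean of the 3 RANKL libraries for each member (rows, by role and fold change) in each of the 6 libraries (columns), with the scale ending at -1 and 1. The treated columns are blue for most rows, deepest for Gins3, Gins1 and Pcna, and etelcalcetide replicate 1 is the palest of them.

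Sequence upstream of the members was searched because this group is a textbook target of E2F factors. RefSeq windows of the 250 bases before a gene's start, on GRCm38.p6, were found for 34 of the 42 members. The E2F search used the letters TTTCCCGC, TTTGGCGC, TTTCGCGC and TTTGCCGC on both strands, and matches may overlap each other. At least 1 match stood in the windows of 8 of 34 members (23.5%), compared with 2.16% of 27025 RefSeq genes and 4.31% of 8357 tested genes with a window. The 8 were Mcm5, Mcm6, Mcm7, Gins3, Orc1, Cdc6, Rfc3 and Pola1, so a match stood in 8 of the 28 members with a window that were called lower and in 0 of the 6 that were not called. Most members with a window were called lower, and this difference was not tested. A CCAAT box, CCAAT on either strand, stood in 22 of 34 members (64.7%), compared with 37.5% of all RefSeq genes and 41.1% of tested genes. The CHR element of mitotic genes, TTTGAA or TTTAAA on either strand, stood in 7 of 34 (20.6%), compared with 28.1% and 20.5%. In a list of mitotic genes, 17 of 23 (73.9%) had a CCAAT box, a higher share than among the members. Of the same 23, 0 had an E2F match and 11 a CHR match. A match of letters is a description and not a bound site.

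The 4 windows below show where the E2F matches stand; those of Mcm5, Cdc6 and Pola1 were picked after the matches were seen, and the matches of Gins3, Orc1, Mcm7 and Rfc3 fall in annotated exons and are not shown. Capitals mark the matches, and each sequence is written 5′ to 3′ on the strand of its gene, without annotated exons. Mcm6 has 3 matches, of which 2 overlap, in chr1:128359706-128359955, minus strand. Mcm5 has 2 overlapping matches in chr8:75109259-75109508, plus strand. Cdc6 has 1 match in 169 bases at chr11:98907982-98908150, plus strand, and Pola1 has 1 in chrX:93632156-93632405, minus strand. In GENCODE M21 the Cdc6 gene begins at 98907801, so its printed stretch lies inside that gene, before a later RefSeq start.
Mcm6: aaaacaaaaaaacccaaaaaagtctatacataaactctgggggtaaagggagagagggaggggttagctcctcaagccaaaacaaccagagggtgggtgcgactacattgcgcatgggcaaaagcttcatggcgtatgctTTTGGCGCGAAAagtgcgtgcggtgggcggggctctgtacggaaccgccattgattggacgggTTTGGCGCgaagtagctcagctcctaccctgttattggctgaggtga
Mcm5: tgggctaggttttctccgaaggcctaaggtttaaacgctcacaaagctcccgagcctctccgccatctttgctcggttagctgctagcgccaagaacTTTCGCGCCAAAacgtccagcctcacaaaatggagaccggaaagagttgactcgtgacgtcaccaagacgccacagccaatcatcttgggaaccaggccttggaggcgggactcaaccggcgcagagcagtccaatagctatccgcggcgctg
Cdc6: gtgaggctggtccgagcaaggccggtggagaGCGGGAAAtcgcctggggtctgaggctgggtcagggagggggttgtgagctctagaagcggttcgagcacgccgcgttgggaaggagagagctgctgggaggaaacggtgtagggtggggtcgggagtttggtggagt
Pola1: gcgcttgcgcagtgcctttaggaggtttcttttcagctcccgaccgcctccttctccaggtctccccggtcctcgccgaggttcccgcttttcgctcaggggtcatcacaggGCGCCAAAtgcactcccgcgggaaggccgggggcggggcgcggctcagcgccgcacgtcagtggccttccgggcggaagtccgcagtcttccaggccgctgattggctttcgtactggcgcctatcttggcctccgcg

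The run of 12 letters formed by the overlapping matches, TTTGGCGCGAAA in Mcm6, reads TTTCGCGCCAAA in Mcm5, which is its reverse complement. It begins 110 bases before the RefSeq start of Mcm6 and 153 bases before that of Mcm5. For each of these genes the RefSeq start lies upstream of the GENCODE M21 start. In all, 4 of the 27025 RefSeq genes (0.0148%) hold this run in the same window. Within the MCM ring, Mcm6 had the largest fold change and Mcm5 the smallest, with the values given below.

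Origin licensing genes were the role in which every member was lower, with a median log2 fold change of -0.52 over the 5. Cdt1, which brings the MCM ring to origins (chromosome 8, 122568015 to 122573554), had 42.8, 40.3 and 47.3 FPKM in RANKL replicates 1 to 3 and 31.5, 31.8 and 31.2 FPKM with etelcalcetide. The treated libraries lay close together and all below the lowest RANKL library. Its log2 fold change was -0.54 (SE 0.0629, limma adjusted p = 0.000151). Orc6, the smallest subunit of the origin recognition complex (chromosome 8, 85299632 to 85308278), had 17.0, 18.0 and 15.4 FPKM in the RANKL libraries and 12.7, 11.2 and 13.0 FPKM in the treated ones. Its groups did not overlap either, and the log2 fold change was -0.52 (SE 0.0803, limma adjusted p = 0.000686). Orc1, an ATP-binding subunit of the origin recognition complex, showed the largest fold change of this role at -0.63. Its level went from 5.23 ± 0.239 to 3.54 ± 0.433 FPKM (each mean ± SD of 3 libraries). Cdc6, the loader ATPase, went from 11.7 ± 0.311 to 9.79 ± 0.163 FPKM. Gmnn encodes geminin, which binds Cdt1 and blocks relicensing, and it was lower as well, by 20.9%, from 45.5 ± 2.46 to 38.0 ± 0.331 FPKM.

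Since Cdt1 and its inhibitor geminin were both lower, their ratio was compared within libraries. The ratio of Gmnn to Cdt1 FPKM was 1.12, 1.13 and 0.912 in the RANKL libraries and 1.21, 1.197 and 1.21 in the treated ones. A ratio within a library does not depend on the scaling between libraries. This ratio is 1 of 6 that were chosen after the values were seen, and in each of the 6 the groups did not overlap. The two-sided exact permutation p was 0.1 for each, the smallest that 3 against 3 allows (0.1 after Benjamini-Hochberg adjustment over the 6), so no ratio could pass a threshold of 0.05.

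Helicase genes ranged from the largest fall of all members to no called change. Of 12 helicase genes 10 were lower, 6 of these at log2 fold changes from -0.38 to -0.19, and the median over the 12 was -0.31. Gins3 (ENSMUSG00000031669, chromosome 8, 95633453 to 95645060), which encodes the Psf3 subunit of GINS, had 26.9, 25.0 and 25.1 FPKM in the RANKL libraries and 10.8, 8.998 and 9.56 FPKM in the treated ones. The groups were far apart, and no member changed more. Its log2 fold change was -1.46 (SE 0.0745, 95% interval -1.63 to -1.29, limma adjusted p = 1.33e-06), a level 2.76-fold lower. Gins1, the Psf1 subunit, had 17.2, 18.6 and 18.2 FPKM in the RANKL libraries and 9.92, 8.3996 and 10.5 FPKM in the treated ones. That change was the second largest of the members, at -0.98 (SE 0.0823, limma adjusted p = 2.21e-05).

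The other GINS subunits showed no called change. Gins4, the Sld5 subunit (chromosome 8, 23226616 to 23237659), had 26.6, 27.5 and 26.6 FPKM in the RANKL libraries and 27.3, 25.5 and 24.1 FPKM in the treated ones. The deposited values overlapped, and only after scaling did the treated libraries all lie lower. The log2 fold change was -0.15 (95% interval -0.29 to -0.01, limma adjusted p = 0.0673). The adjusted p became 0.0388 without etelcalcetide replicate 1 and 0.0497 with upper-quartile scaling, so this call hung on 1 library and on the scaling. Gins2, the Psf2 subunit (chromosome 8, 120578633 to 120589304), had 7.02, 7.78 and 7.83 FPKM in the RANKL libraries and 7.63, 7.74 and 7.95 FPKM in the treated ones. The groups overlapped, with a log2 fold change of -0.03 (95% interval -0.20 to 0.13, limma adjusted p = 0.721), which became 0.04 with library totals. Of the Gins2 exon length 67.3% also lies in Gse1, and with strandedness not stated, reads of the pair cannot be told apart. The 4 GINS proteins form a complex with 1 copy of each. By FPKM the highest GINS subunit exceeded the lowest, Gins2, by 3.40 to 3.82 times with RANKL and by 3.03 to 3.58 times with etelcalcetide, and these ranges overlapped. The ratios to Gins4 were lower in every treated library. The ratio of Gins3 to Gins4 FPKM was 0.954 ± 0.0517 with RANKL and 0.382 ± 0.0247 with etelcalcetide, and that of Gins1 to Gins4 was 0.669 ± 0.0191 and 0.376 ± 0.0540 (SD, n = 3).

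All 6 genes of the MCM2 to MCM7 ring were lower, with a median log2 fold change of -0.35. Mcm6 (ENSMUSG00000026355, chromosome 1, 128331590 to 128359664), whose upstream window is shown above, had 91.2, 94.4 and 89.5 FPKM in the RANKL libraries and 63.6, 58.5 and 59.8 FPKM in the treated ones. The groups were separate, with Mcm6 lower by 37.4% at a log2 value of -0.68 (SE 0.0515, limma adjusted p = 1.26e-05). Mcm4, another ring subunit, followed at -0.59, from 71.3 ± 2.57 to 50.1 ± 2.51 FPKM. Mcm2, Mcm3 and Mcm7 were lower by 23.2%, 19.5% and 16%. Mcm5 had 86.6, 89.6 and 94.3 FPKM in the RANKL libraries and 89.4, 81.7 and 80.1 FPKM in the treated ones. Its deposited values overlapped, and only after scaling did the treated libraries all lie lower, with a log2 fold change of -0.19 and an SE of 0.0585 (limma adjusted p = 0.0241). The Mcm5 call was lost with library totals (adjusted p = 0.160), without the filter on low values (0.0568), and without RANKL replicate 2 (0.0637), RANKL replicate 3 (0.0530), etelcalcetide replicate 2 (0.0565) or etelcalcetide replicate 3 (0.0738).

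The order of ring subunits by FPKM changed with these unequal falls. Mcm2 was the lowest of the 6 in every library. The highest was Mcm6 in RANKL replicates 1 and 2, Mcm3 in RANKL replicate 3 and Mcm5 in all 3 treated libraries. With RANKL the means of Mcm3, Mcm6 and Mcm5, at 92.4, 91.7 and 90.2 FPKM, differed by less than their SDs of 2.48 to 3.93. The highest ring subunit exceeded the lowest by 2.27 to 2.32 times with RANKL and by 2.51 to 2.56 times with etelcalcetide. The Mcm6 to Mcm5 ratio went from 1.02 ± 0.0603 to 0.725 ± 0.0186. Of the remaining helicase genes, Mcm10, which helps to activate the loaded ring, was lower at -0.30 and Cdc45, the activating subunit, at -0.27 (limma adjusted p = 0.0156). The Cdc45 call was lost with library totals (0.0596) and without etelcalcetide replicate 3 (0.0629).

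**Figure D3:**
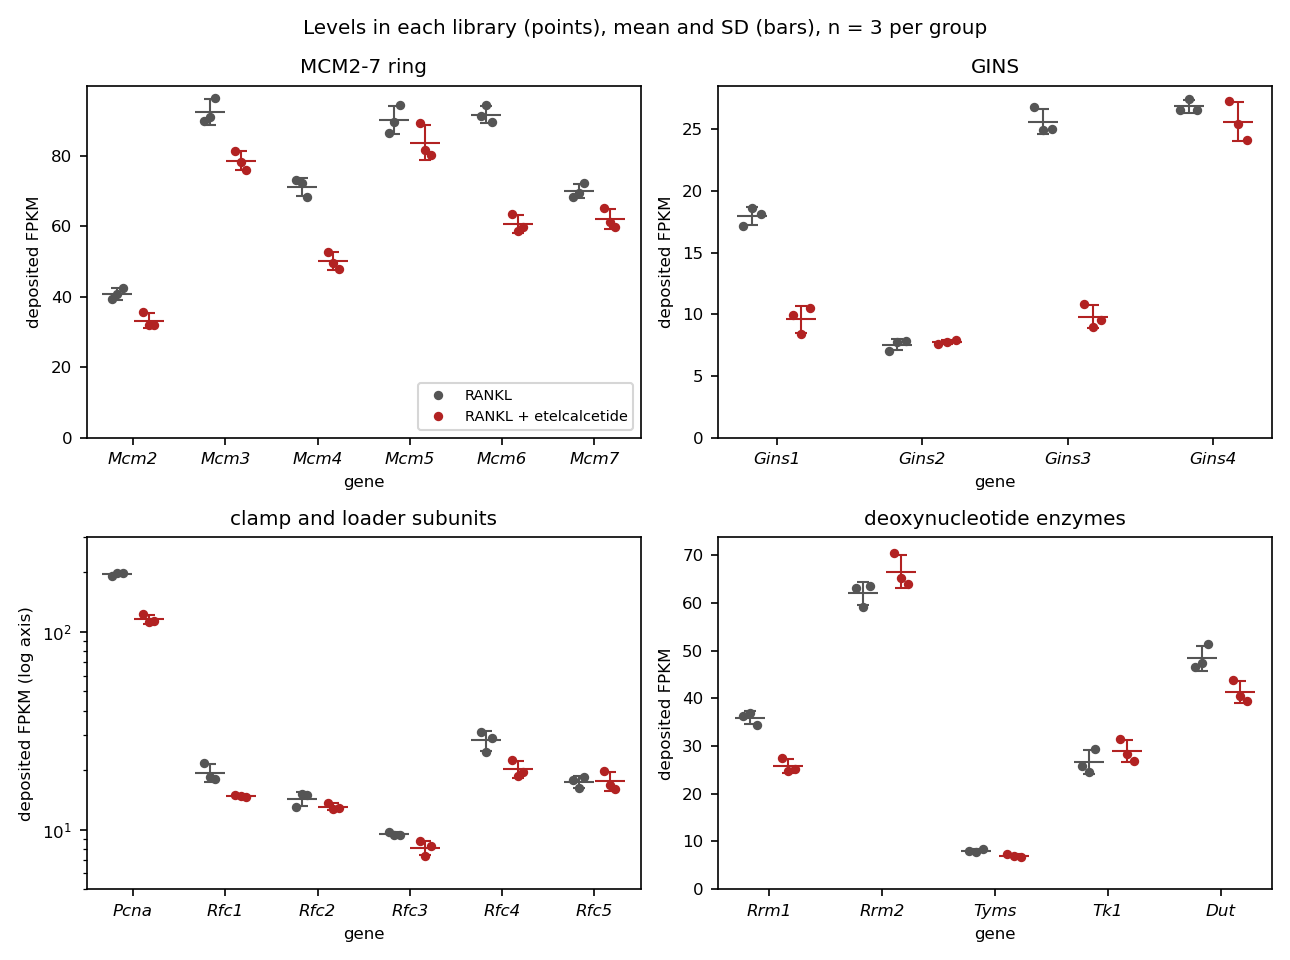
Deposited FPKM (y axes, logarithmic for the clamp and loader panel) of the subunits of 4 groups of members (x axes); points are libraries and bars are means with SD, n = 3 per group. Gins1 and Gins3 separate widely while Gins2 and Gins4 do not, and Rrm1 falls while Rrm2 does not.

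The sliding clamp and 4 subunits of its loader were lower. Pcna (ENSMUSG00000027342, chromosome 2, 132249162 to 132253314), the ring that tethers polymerases and many repair proteins to DNA, had 191, 198 and 198 FPKM in the RANKL libraries and 123, 112 and 113 FPKM in the treated ones. It was the most abundant member in all 6 libraries, and its groups were far apart, with a log2 fold change of -0.84 and an SE of 0.0524 (limma adjusted p = 4.26e-06). A pseudogene, Pcna-ps2, matches Pcna at 99.2% of 781 bases and had 18 to 55 reads in a library against 3693 to 7535 for Pcna. Of the 5 RFC subunits that open and load the ring 4 were lower, with a median of -0.31. Rfc4, a small subunit (chromosome 16, 23113943 to 23127737), had 31.2, 24.8 and 29.0 FPKM in the RANKL libraries and 22.4, 18.7 and 19.7 FPKM in the treated ones. All treated values lay below the lowest RANKL value, and its log2 fold change was -0.56 (SE 0.0933, limma adjusted p = 0.00108). Rfc1, the large subunit, and Rfc3 were lower by 27.3% and 19.3%.

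Among the loader subunits Rfc5 did not pass the test. Rfc5 (chromosome 5, 117378103 to 117389047) had 17.9, 16.2 and 18.4 FPKM in the RANKL libraries and 19.7, 16.9 and 16.1 FPKM in the treated ones, and the groups overlapped. Its log2 fold change was -0.08 (95% interval -0.27 to 0.12, limma adjusted p = 0.480), which became 0.00 with library totals. Rfc2 stood near the threshold at -0.21 (limma adjusted p = 0.0406). That call was lost with library totals (0.178), without the filter (0.0785) and without RANKL replicate 2 (0.141), RANKL replicate 3 (0.0860), etelcalcetide replicate 2 (0.0897) or etelcalcetide replicate 3 (0.0933). Rfc4 was the highest and Rfc3 the lowest loader subunit by FPKM in all 6 libraries.

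Polymerase and primase genes were lower in 6 of 7 cases, with a median log2 fold change of -0.37. Pole, the catalytic subunit of the leading-strand polymerase epsilon (chromosome 5, 110286306 to 110337474), had 10.96, 10.1 and 9.95 FPKM in the RANKL libraries and 8.32, 7.64 and 7.57 FPKM in the treated ones. Pold2, the accessory subunit of polymerase delta (chromosome 11, 5872180 to 5878292), had 32.5, 30.8 and 34.9 FPKM and then 27.8, 23.4 and 24.3 FPKM. Neither gene's groups overlapped, and the log2 fold changes were -0.47 (SE 0.0726) and -0.46 (SE 0.0739), with limma adjusted p = 0.000703 and 0.000893. Pold1, the catalytic subunit of polymerase delta, was lower by 22.8%, from 21.8 ± 1.002 to 17.7 ± 0.854 FPKM. The catalytic subunits of polymerases delta and epsilon were not tested against each other.

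The priming enzyme was less uniform. Prim2, the large primase subunit (chromosome 1, 33453810 to 33669795), had 9.23, 9.13 and 9.23 FPKM in the RANKL libraries and 10.1, 9.25 and 9.65 FPKM in the treated ones. All 3 treated values were higher as deposited, by little, and the groups overlapped after scaling. The log2 fold change was -0.01 (95% interval -0.15 to 0.13, limma adjusted p = 0.924) and became 0.07 with library totals. Prim1, the catalytic primase subunit, was lower at -0.28 (limma adjusted p = 0.0211), Pola2 at -0.25 (0.00849) and Pola1, the polymerase alpha subunit whose window is shown above, at -0.43 (0.0244). Pola1 had 6.47 FPKM in RANKL replicate 1 and 4.75 and 4.83 FPKM in the other RANKL libraries, against 4.35, 4.39 and 3.70 FPKM with etelcalcetide. Its call was lost without RANKL replicate 1 (0.0555), without etelcalcetide replicate 3 (0.0904), with library totals (0.0505) and without the filter (0.0766). The Prim1 call was lost with library totals (0.0704) and when RANKL replicate 1 (0.0571), RANKL replicate 2 (0.0641), etelcalcetide replicate 2 (0.0528) or etelcalcetide replicate 3 (0.0690) was left out, and the Pola2 call with library totals alone (0.0531). Pola1 was the lowest of these 4 subunits in every library, Pola2 the highest in all RANKL libraries and Prim2 the highest in all treated libraries.

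Genes for single-strand binding and for joining lagging-strand fragments showed small changes, with 3 of 5 lower and a median of -0.29. Lig1, the ligase that seals Okazaki fragments (chromosome 7, 13277283 to 13311433), had 50.8, 56.6 and 54.2 FPKM in the RANKL libraries and 46.3, 44.7 and 44.4 FPKM in the treated ones. Rpa3, the smallest subunit of the single-strand binding protein RPA (chromosome 6, 8255936 to 8259173), had 36.1, 37.9 and 38.0 FPKM and then 30.8, 30.2 and 33.5 FPKM. Both separated without overlap at a log2 fold change of -0.33, with limma adjusted p = 0.00117 for Lig1 (SE 0.0561) and 0.00110 for Rpa3 (SE 0.0546). Rpa1, the large DNA-binding subunit, was lower by 12.1% (limma adjusted p = 0.00902), which was lost with library totals (0.0897).

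Rpa2 and Fen1 did not pass the test. Rpa2, the middle RPA subunit (chromosome 4, 132768332 to 132778752), had 25.4, 23.6 and 28.8 FPKM in the RANKL libraries and 26.2, 22.6 and 23.0 FPKM in the treated ones. The groups overlapped, with a log2 fold change of -0.19 and an SE of 0.0832 (limma adjusted p = 0.0823), and the adjusted p became 0.0481 without RANKL replicate 2 and 0.0432 without etelcalcetide replicate 1. Fen1, the flap endonuclease that trims Okazaki fragments (chromosome 19, 10199132 to 10204169), had 5.17, 4.63 and 4.15 FPKM in the RANKL libraries and 3.69, 4.54 and 3.78 FPKM in the treated ones. Etelcalcetide replicate 2 lay among the RANKL values, and the log2 fold change was -0.29 (SE 0.119, limma adjusted p = 0.0694). Without that replicate the adjusted p was 0.0311, and without RANKL replicate 3 it was 0.0303. Other genes, among them Gm10143, cover 84.2% of the Fen1 exon length, and its counts were the lowest of the members in each library, at 138 to 191 reads.

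Deoxynucleotide enzymes divided, with 3 of 5 lower, 0 higher and a median log2 fold change of -0.27. Rrm1 (ENSMUSG00000030978, chromosome 7, 102441695 to 102469771), the large subunit of ribonucleotide reductase, had 36.4, 36.9 and 34.4 FPKM in the RANKL libraries and 27.5, 24.7 and 25.1 FPKM in the treated ones. These groups were apart, with a log2 fold change of -0.56 and an SE of 0.0599 (limma adjusted p = 9.43e-05). Rrm2 (ENSMUSG00000020649, chromosome 12, 24708241 to 24714146), the small subunit that carries the radical, had 63.2, 59.2 and 63.6 FPKM in the RANKL libraries and 70.5, 65.2 and 64.0 FPKM in the treated ones. As deposited, every treated value was the higher, and after scaling the groups overlapped, with a log2 fold change of 0.02 (95% interval -0.10 to 0.15, limma adjusted p = 0.761). The ratio of Rrm2 to Rrm1 FPKM was 1.74, 1.601 and 1.85 in the RANKL libraries and 2.57, 2.63 and 2.55 in the treated ones. The RNA levels of the enzyme's subunits were thus farther apart in every treated library than in any RANKL library.

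The thymidylate enzymes also included 1 gene that passed the test and 1 that did not. Tk1, the salvage kinase that phosphorylates thymidine (chromosome 11, 117815526 to 117826092), had 25.9, 24.6 and 29.4 FPKM in the RANKL libraries and 31.5, 28.3 and 26.9 FPKM in the treated ones. The groups overlapped, and the log2 fold change was 0.04 (95% interval -0.14 to 0.23, limma adjusted p = 0.695). Tyms, which makes thymidylate from dUMP, was lower at -0.27 (limma adjusted p = 0.0113), from 8.02 ± 0.334 to 7.00 ± 0.280 FPKM. The Tk1 to Tyms ratio went from 3.31 ± 0.180 to 4.13 ± 0.185. Dut, the dUTPase that supplies dUMP and keeps uracil out of DNA (chromosome 2, 125247190 to 125258608), had 46.5, 47.4 and 51.4 FPKM in the RANKL libraries and 43.8, 40.5 and 39.5 FPKM in the treated ones. It was lower without overlap, at -0.31 (SE 0.0608, limma adjusted p = 0.00263).

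The CAF-1 subunits that place histones behind the fork had the smallest median of the roles, -0.08 over the pair. Chaf1a (chromosome 17, 56040439 to 56072289), the large subunit, had 10.6, 11.4 and 11.3 FPKM in the RANKL libraries and 10.6, 10.4 and 9.21 FPKM in the treated ones, and Ubxn6 shares 52.5% of its exon length. It was called lower at -0.22 (SE 0.0769, limma adjusted p = 0.0353). That call was lost with library totals (0.133), without the filter (0.0672), and without RANKL replicate 2 (0.109), RANKL replicate 3 (0.0615) or etelcalcetide replicate 3 (0.108). Chaf1b (chromosome 16, 93883901 to 93906115), the middle subunit, had 10.9, 12.1 and 12.9 FPKM in the RANKL libraries and 14.1, 12.6 and 12.7 FPKM in the treated ones. Its groups overlapped, with a log2 fold change of 0.06 (95% interval -0.12 to 0.24, limma adjusted p = 0.576).

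Across roles, the medians ran from -0.52 for origin licensing through -0.38 for clamp and loader, -0.37 for polymerases and primase, -0.31 for the helicase, -0.29 for single-strand binding and Okazaki maturation and -0.27 for deoxynucleotide enzymes to -0.08 for chromatin assembly. The roles hold 2 to 12 genes each and were not tested against each other. Every role except licensing held at least 1 member that did not pass the test.

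**Figure D4:**
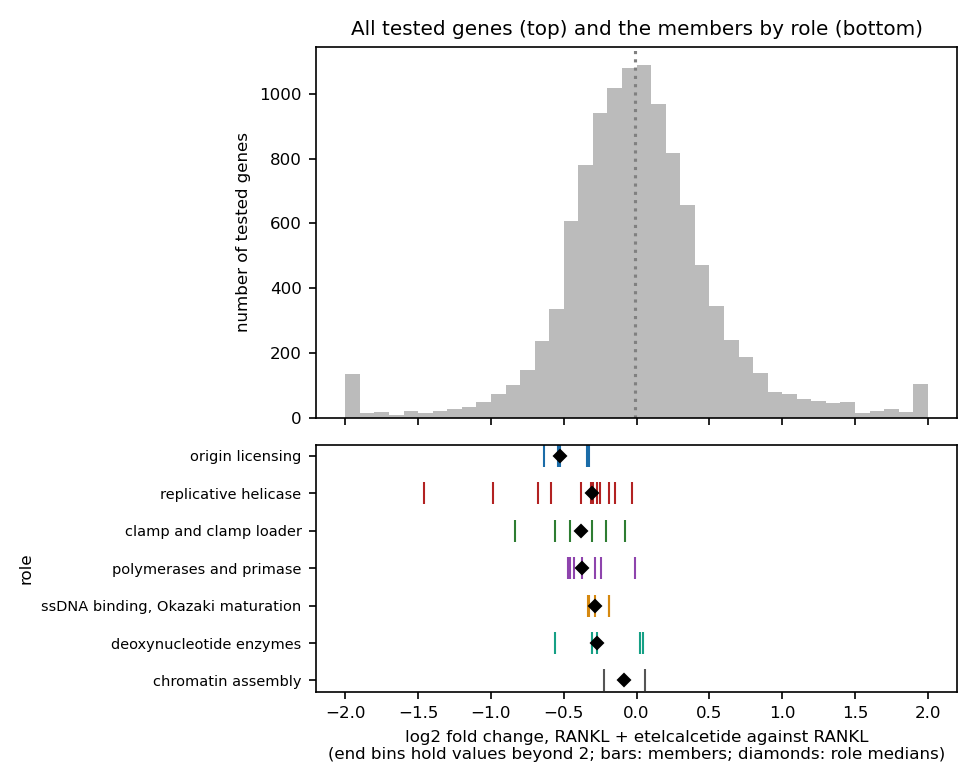
The upper panel counts the 11120 tested genes by log2 fold change (x axis, RANKL + etelcalcetide against RANKL, end bins holding values beyond 2), and the lower panel marks each member as a bar by role, with diamonds at role medians. All 7 diamonds lie to the left of 0, between -0.52 and -0.08, while the histogram is centred near 0.

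Other genes of the same processes, taken from lists made for these roles and excluding the members, were lower in most cases. Of 12 other licensing and firing genes 11 were lower and 0 higher, with a median of -0.34. They were led by Orc5 and Orc2, subunits of the origin recognition complex, at -0.75 and -0.81 (limma adjusted p = 3.64e-05 and 9.87e-05), and by Topbp1, which helps to fire origins, at -0.64 (0.000496). Of 21 other fork genes 15 were lower and 0 higher, with a median of -0.34. Tipin, of the fork protection complex, went from 71.2 ± 3.66 to 53.0 ± 3.64 FPKM (limma adjusted p = 0.000221). Dtl, which directs the destruction of Cdt1 in S phase, and Rnaseh2b, a subunit of the nuclease that removes RNA from DNA, were lower at -0.54 and -0.74 (0.000680 and 0.000844).

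Supply genes were more mixed. Of 16 other deoxynucleotide genes 9 were lower and 2 higher, with a median of -0.28. Shmt1 and Mthfd1, which feed folate one-carbon units to thymidylate synthesis, were lower at -0.67 and -0.46 (limma adjusted p = 0.000165 and 0.000205). Cmpk2, a mitochondrial nucleotide kinase that interferon induces, went the other way, from 0.614, 0.605 and 0.694 FPKM in the RANKL libraries to 3.30, 2.22 and 2.998 FPKM in the treated ones. Its log2 fold change was 1.91 (SE 0.163, limma adjusted p = 2.55e-05), and that of Dguok, the mitochondrial deoxyguanosine kinase, was 0.39 (0.0105). Of 18 genes that build the purine and pyrimidine rings 12 were lower and 1 higher, with a median of -0.29. Adss, which commits IMP to AMP, Prps2, which makes the ribose donor, and Gart, a purine ring enzyme, were lower at -0.85, -0.79 and -0.59 (limma adjusted p = 2.52e-05, 3.55e-05 and 6.46e-05). Impdh1, which commits IMP to GMP, was higher at 0.49 (0.000224).

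Chromatin genes outside CAF-1 were lower in 7 of 9 cases and higher in 0, with a median of -0.32. The leading ones were Rbbp7, a histone-binding protein, at -0.50, Nasp, a histone chaperone, at -0.50, and Dnmt1, the maintenance DNA methyltransferase, at -0.26 (limma adjusted p = 0.000115, 0.000453 and 0.00139). Of 5 genes of S phase histone supply 1 was lower, Npat, the coactivator of histone genes, at -0.44 (limma adjusted p = 0.0242), with 12.5 FPKM in RANKL replicate 1 and 8.75 and 8.27 FPKM in the other RANKL libraries. Slbp, which binds histone mRNA, and Lsm10, of its processing machinery, had limma adjusted p = 0.375 and 0.312. Together these 6 lists gave 55 genes lower, 3 higher and 23 not called among 81 tested. Of all tested genes 27.0% were lower and 26.0% higher. The 11 repair and low-fidelity polymerases, which were not tested against these lists, had 2 lower, 1 higher and 8 not called. Those lower were Polk at -0.90 and Rev1 at -0.65, which copy past damaged bases, and the higher one was Polm, an end-joining polymerase, at 0.40. Mcm8, an MCM paralog of recombination, was lower at -0.92 (limma adjusted p = 0.000280), and its partner Mcm9 was at 0.18 (0.126).

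The regulators of S phase entry did not share 1 direction. Of 28 tested genes for E2F factors, RB proteins, cyclins and their kinases and inhibitors 11 were lower, 5 higher and 12 not called, with a median of -0.09. Tfdp2, a partner of E2F proteins, was lower at -1.47 (limma adjusted p = 2.64e-05) and Ccna2, cyclin A2, at -0.55 (8.08e-05). Those higher were Ccnd2 and Ccnd3, D-type cyclins, Ccne1, cyclin E1, Cdkn2d, an inhibitor of CDK4 and CDK6, and Rb1. Ccnd2 had 8, 5 and 2 reads in the RANKL libraries and 118, 96 and 94 reads in the treated ones, a fitted log2 fold change of 2.57 (limma adjusted p = 7.27e-05) that depends on the pseudocount at such low counts. Ccne1, Cdkn2d and Ccnd3 were higher at 0.49, 0.49 and 0.46 (0.000366, 0.00254 and 0.000701), and Rb1 at 0.33 (0.0339).

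Most genes of mitosis were lower too. Of 28 spindle and kinetochore genes 17 were lower, 1 higher and 10 not called, with a median of -0.33. Ccnb1, cyclin B1, was lower at -0.41, Tpx2, a spindle assembly factor, at -0.53 and Mad2l1, of the spindle checkpoint, at -0.49 (limma adjusted p = 0.000216, 0.000260 and 0.000434). Cenpa, the centromeric histone, was the higher one at 0.22 (0.0301). The members and the mitotic list were not tested against each other.

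Osteoclast and macrophage markers also differed between the groups, and their part in the replication results was not tested. Of 8 tested osteoclast markers 6 were lower and 0 higher, Dcstamp and Mmp9 were not called, and the sum over the list of 9 went from between 392 and 538 FPKM to between 205 and 218 FPKM. Oscar and Calcr were at 0 in all 3 treated libraries. Of 8 macrophage markers 4 were higher and 0 lower, and their sum went from between 2646 and 2799 FPKM to between 2979 and 3137 FPKM. Adgre1, which encodes the macrophage marker F4/80, was among those higher. Marker lists of lymphocytes, fibroblasts and osteoblasts, epithelium and endothelium, and neutrophils and mast cells had 0 tested genes, with list sums of at most 0.751 FPKM in any library.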

How the data were processed

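Total RNA of 6 RAW264.7 libraries was sequenced, and groups and replicate numbers came from the sample titles. The authors deposited 1 FPKM value per gene and library. The submitters' processing notes list HISAT2 2.1.0, featureCounts 1.6.0, DESeq2 1.22.1, Trimmomatic 0.38, FastQC, MultiQC and CASAVA without role or order, and the build GRCh38, yet all 55536 gene IDs matched mouse GENCODE M21 (GRCm38), which gave symbols, coordinates and exon lengths. RNA selection and strandedness are not given in the sources used here.

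FPKM times merged exon length gave whole reads for 100% of values (tolerance 0.01 reads), with 13742913 to 16264432 reads per library. A single read on 1 kb was worth 0.0615 to 0.0728 FPKM. Libraries were scaled by TMM factors (trimmed mean of M-values, 30% of M and 5% of A trimmed), and log2(FPKM + 0.1) was fitted with limma 3.58.1 in R 4.3.3, with group as the only term and all 6 libraries. Genes needed 0.5 FPKM and 10 reads in at least 3 libraries, and p-values were Benjamini-Hochberg adjusted over 11120 genes (threshold 0.05). Fold changes are on that log2 scale, which understates changes of low genes. Printed FPKM are deposited values, before scaling.

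Members and lists were chosen with earlier results of these data known. Full values are given for the 2 members with the smallest adjusted p in each role and for every member not called; Gins1, Mcm5 and Pola1 were added after their values were seen. Lists are described by counts, the 3 leading members by adjusted p, and those called against the majority. Chtf8 matched 2 gene IDs and was left out. Alternatives covered scaling, filter, pseudocount, a replicate block, limma-voom on recovered reads and leaving out each library. The steps were also run on simulated data in which few genes changed, evenly up and down. Error rates at the breadth of change seen here were not tested. Tables were summarised with numpy 2.4.6 and pandas 2.3.3 under Python 3.11.15.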

Additional observations from a re-analysis of the deposited data

How the results depend on the processing

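Under the 15 alternatives, between 25 and 35 members were lower and 0 were higher in each. Of all tested genes, 11.9% to 28.5% were lower in these alternatives. Leaving out 1 library at a time gave 27 to 35 lower members, with 27 without etelcalcetide replicate 3. The share lower among all tested genes was 21.8% to 27.4% in these runs, and 23.5% without etelcalcetide replicate 3. Of the 42 members 25 kept direction and call in every alternative run. Library totals alone turned the log2 fold change of Gins2 to 0.0446, of Rfc5 to 0.00277 and of Prim2 to 0.0706. Leaving out 1 library at a time gave -0.0360 to 0.00610 for Prim2, -0.0159 to 0.0495 for Rrm2, -0.0179 to 0.111 for Tk1 and -0.0102 to 0.110 for Chaf1b, so these 4 changed sign with the libraries used. Without the filter on low values 22193 genes were tested, of which 11.9% were lower, and 29 members were lower. No pairing by replicate number was seen in the deviations from group means across genes. Same-numbered libraries correlated at 0.0744, -0.0188 and -0.0299, and other pairs at -0.0989 to 0.115. This comparison of 3 libraries per group cannot settle whether same-numbered libraries share a day, as their labels state. With the replicate block 32 members were lower, against 26.4% of all tested genes, and Rfc2 had an adjusted p of 0.0637 (limma). With 138 to 7535 reads per member and 3 libraries per group, small differences could not be settled. Some members share sequence with pseudogenes or repeats, and the counting of reads that match several places is not stated.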
